A study of Mus musculus with 4 samples.

Results

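Open chromatin regions that lie inside introns of protein-coding genes, away from promoters, and that carry a single AP-1 site are described here in keratinocytes of inflamed mouse skin. Peaks of 4 ATAC-seq libraries were merged into 82641 regions wherever they overlapped by at least 1 bp. A region was kept when it lay more than 2 kb from every annotated transcription start site (TSS), when its strongest summit fell in an intron of a protein-coding gene and in no exon, and when exactly 1 exact copy of TGASTCA (S is C or G) lay within 150 bp of that summit. These criteria left 7363 regions in 3805 host genes, which is 8.91% of all regions and 27.5% of the 26747 intronic distal regions. Neither the height of a region nor its difference between genotypes entered the choice, but every member is open in at least 1 library by construction.

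ATAC-seq marks open chromatin by the sites where the Tn5 transposase can insert sequencing adapters. The cells were basal keratinocytes, sorted as EpCam+ CD49f-high from the skin of female C57BL/6 mice aged 8 to 12 weeks, per the study's methods. All mice had received 5% imiquimod (Aldara cream) on the skin for 8 days, so no untreated skin is included. WT 1 and WT 2 are the wild-type libraries, and Mapk8-KO 1 and Mapk8-KO 2 come from mice without Mapk8 in the epidermis (K14-Cre Mapk8 fl/fl), in which the keratin 14 promoter drives Cre, so other skin cells keep the gene.

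Mapk8 encodes JNK1, a stress-activated kinase that phosphorylates the AP-1 subunit c-Jun. AP-1 is a dimer of Jun, Fos and ATF family proteins and binds the palindromic 7-bp TPA response element searched for here. In keratinocytes AP-1 sites are common in enhancers, the distal elements that act on promoters from afar, and many enhancers lie in introns. An intronic position does not tell which gene a region acts on, and the host genes named here give the position only.

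The labelled cell type was checked against marker promoters. Promoters of 10 of 12 basal keratinocyte markers were open in all 4 libraries and those of all 12 in at least 1. For immune cells 0 of 12 marker promoters were open in all 4 libraries, and Ptprc, Cd3e and Itgam had no peak in any. Fibroblast markers had 2 of 9 promoters open in all 4 libraries (Dcn, Lum and Col3a1 had none in any), melanocyte markers 4 of 9 (none for Tyr and Sox10) and endothelial markers 4 of 8 (none for Cdh5). The summed promoter pileup was 610 and 363 fragments in WT and 858 and 461 in Mapk8-KO for basal keratinocytes, 258 and 182 against 317 and 205 for melanocytes, 63 and 48 against 82 and 45 for fibroblasts, 197 and 130 against 197 and 95 for endothelium, and 18 and 0 against 21 and 15 for immune cells. The stain used for the sort also held antibodies to CD45, CD31 and CD140a, markers of immune, endothelial and mesenchymal cells, per the study's methods. The part of these other cells in the results below was not tested. Depth differed more within than between genotypes. Over the 40159 regions called in all 4 libraries the median summit pileup, the number of fragments covering the summit base, was 49 (WT 1), 34 (WT 2), 54 (Mapk8-KO 1) and 30 (Mapk8-KO 2). Where 4 values follow a region or gene without further label, they are pileups, listed with the WT pair first.

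The sequence around the site is shown for regions that recur below, to let the bases beside the 7-mer be compared. Each line runs 5′ to 3′ on the strand that reads TGACTCA, with the AP-1 site in capitals, from the mm10 reference (GRCm38.p6).
Mapk8, chr14:33443890-33443950, plus strand: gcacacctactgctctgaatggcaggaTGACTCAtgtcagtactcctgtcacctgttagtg
Egfr, chr11:16800821-16800881, minus strand: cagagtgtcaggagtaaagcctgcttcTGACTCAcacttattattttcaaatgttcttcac
Egfr, chr11:16851173-16851233, minus strand: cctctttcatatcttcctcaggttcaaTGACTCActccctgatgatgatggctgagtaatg
Map3k5, chr10:19967148-19967208, plus strand: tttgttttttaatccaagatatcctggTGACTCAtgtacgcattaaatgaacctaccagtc
Il20rb, chr9:100466849-100466909, plus strand: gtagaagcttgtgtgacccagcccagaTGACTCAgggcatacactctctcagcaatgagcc
Abca12, chr1:71398348-71398408, minus strand: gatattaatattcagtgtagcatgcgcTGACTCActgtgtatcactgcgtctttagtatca
Abca8b, chr11:109991197-109991257, minus strand: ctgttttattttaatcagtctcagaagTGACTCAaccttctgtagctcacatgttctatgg
Ankrd55, chr13:112300522-112300582, plus strand: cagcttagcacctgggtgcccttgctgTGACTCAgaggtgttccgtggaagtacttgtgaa
Aass, chr6:23084897-23084957, plus strand: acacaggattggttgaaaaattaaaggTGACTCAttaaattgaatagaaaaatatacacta
Pbld2, chr10:63053131-63053191, plus strand: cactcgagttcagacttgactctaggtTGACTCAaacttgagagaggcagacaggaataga
Timp3, chr10:86307399-86307459, plus strand: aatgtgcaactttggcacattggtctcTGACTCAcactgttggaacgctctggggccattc
Stat3, chr11:100899375-100899435, minus strand: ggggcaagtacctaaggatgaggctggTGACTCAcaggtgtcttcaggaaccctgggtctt

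The bases on either side of the 7-mer differed between the sites in members and AP-1 sites at large. The intronic distal part of the genome holds 147046 exact AP-1 sites, of which 7330 (4.98%, Wilson 95% interval 4.87 to 5.10) are the site of a member and 11387 (7.74%) lie in any open region. Read on the TGACTCA strand, sites with T before and A after, as in the Pbld2 region above, were in a member in 0.857% of cases (0.664 to 1.11, 58 of 6768). Sites with G before and T after, as in the Map3k5 and Aass regions, were in a member in 8.87% (8.27 to 9.52, 697 of 7854). This is a 10.4-fold range between the lowest and the highest of the 16 pairs of neighbouring bases. T before the site gave 2.05% (1.89 to 2.22), against 4.59% with C, 5.75% with A and 6.78% with G. On the other side A gave 2.19% (2.04 to 2.36), against 4.62% with G, 6.58% with C and 6.79% with T. Sites in repeat-masked sequence were in a member in 2.41% of cases (2.22 to 2.61) and other sites in 5.50% (5.37 to 5.63). The intervals count sites of 1 genome and of 4 libraries, and cover counting error only.

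Once open, the flanking bases went with much smaller differences. Of 1219 members with T before or A after the site, 46.2% (43.4 to 49.0) were called in all 4 libraries. Of 2695 members with G or A before and C or T after, 48.0% (46.1 to 49.9) were, so the intervals overlap. The median level of the first set was 0.03, 0.00, −0.03 and −0.21 in WT 1, WT 2, Mapk8-KO 1 and Mapk8-KO 2 on the centred log2 scale, which sets the median of all regions called in the 4 libraries to 0. The second set stood at 0.11, 0.08, 0.05 and −0.10 on the same scale, higher in each library by 2 or 3 fragments at the median.

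AP-1 sites lay close to the summit, but most often beside it rather than on it. The distance from site centre to summit had a median of 34 bp (quartiles 19 and 61). Between 20 and 29 bp from the summit the density was 9.26 sites per base per 1000 sites, against 6.35 within 9 bp and 0.448 at 140 to 149 bp. For comparison, 8636 other 7-mers in the same windows that differ from an AP-1 site by 1 base and do not overlap the site had a median distance of 64 bp, with a density of 3.88 within 9 bp, 4.09 at 20 to 29 bp and 2.26 at 140 to 149 bp. Intergenic regions with 1 AP-1 site gave nearly the curve of the members, with a median of 35 bp and 9.13 sites per base per 1000 at 20 to 29 bp. Measured from each library's own summit, the median distance was 35 bp in both deeper libraries (WT 1, Mapk8-KO 1) and 39 bp in both shallower ones (WT 2, Mapk8-KO 2), so the shallower library of each genotype had the larger distance. The median was 34 bp also with the summit taken from the peak of highest −log10 p or from the mean of all summits.

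**Figure D1:**
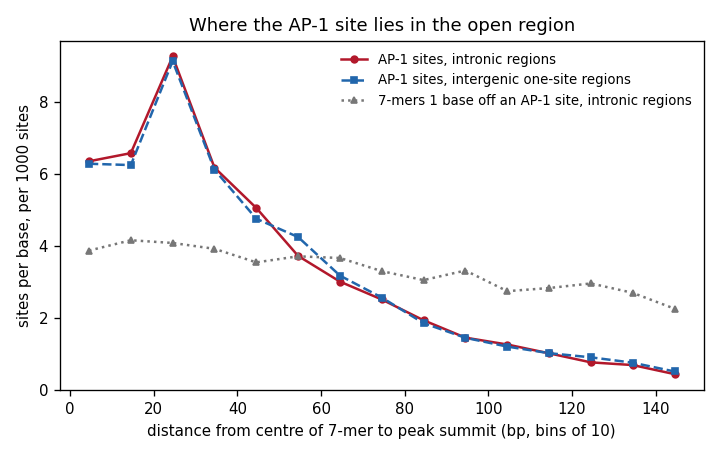
Density of 7-mers (sites per base, per 1000 sites; y axis) by distance from the peak summit (bp, in bins of 10; x axis), for AP-1 sites of the 7363 intronic members, AP-1 sites of the 7385 intergenic one-site regions, and 8636 7-mers 1 base off an AP-1 site in the members. Both AP-1 curves peak at 20 to 29 bp, at 9.26 and 9.13, where the 1-base-off 7-mers stand at 4.09.

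Members resembled other intronic regions in most properties that the choice did not use. Their median width was 385 bp (quartiles 264.5 and 553) and that of the 18413 intronic distal regions without a site was 359 bp. They lay a median of 17138 bp from the nearest TSS and 44778 bp from the start of the host gene, in introns with a median length of 22834 bp. The first intron held 29.6% of members (28.6 to 30.7) and 29.9% of intronic regions without a site (29.3 to 30.6). Median GC content of the 301-bp window was 47.5% and 48.2%, respectively. The host gene's coding strand read TGACTCA at 49.0% of sites (47.9 to 50.2) and TGAGTCA at the others. A second member lay within 10 kb of 27.5% of members.

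Host genes were many and most held few members. Of the 3805 hosts, 2286 held 1 member, and 292 held 5 or more, 1963 members in all. Macrod2, a hydrolase that removes ADP-ribose from proteins, held 22 members over its annotated 1998 kb (1.10 per 100 kb). Fgfr2, a receptor of fibroblast growth factors that act on keratinocytes, held 19 over an annotated 2961 kb, only 0.64 per 100 kb. Next came Gm20388 with 16 and Gm37240 with 15, predicted gene models of 4435 and 1391 kb (0.36 and 1.08 per 100 kb). Adgrv1 and Nckap5 tied with 14 each, at 2.60 and 1.53 per 100 kb. A further 150 members had more than 1 coding host.

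Motifs of other factors were not more frequent beside the AP-1 site than in intronic regions without one. On either strand of the same 301-bp window 17 motifs were searched, namely ETS (AGGAAGT), RUNX (TGTGGTT), that of GATA factors (AGATAAG), TEAD (GGAATGT), C/EBP (TTGCNCAA), KLF (GGGTGTG), SP (GGGGCGG), NF-kB (GGGNNTTCC), STAT (TTCCNGGAA), CREB/ATF (TGACGTCA), GRHL (AACCNGTT), SOX (ACAATGG), FOX (TGTTTAC), E-box (CAGCTG), TFAP2 (GCCNNNGGC), the p53 family and NFI. The p53 family motif was a pair of CATG with a gap of 6 bases, and the NFI motif was TGGC followed, after a gap of 5 bases, by its reverse complement. Matches of different motifs may overlap. Intervals of members and of regions without a site overlapped for 12 motifs, lay lower in members for 5 and higher for 0. KLF, the family of zinc-finger factors that includes the barrier regulator Klf4, matched in 13.7% of members (12.9 to 14.5), 17.9% of intronic regions without a site (17.4 to 18.5) and 14.6% of all regions. GRHL, the grainyhead family of epithelial factors, matched in 3.48% (3.08 to 3.92), 4.89% (4.59 to 5.21) and 4.06%, respectively. The other motifs that were less frequent in members were C/EBP (4.81% against 5.74%, and 4.95% of all regions), SP (2.96% against 3.93%, and 11.2% of all regions) and TFAP2 (9.38% against 10.6%, and 13.6% of all regions). ETS motifs, at 9.13% against 8.75% and 8.44% of all regions, and NF-kB motifs, at 5.00% against 4.71% and 5.37%, did not stand apart. At least 1 of the 17 was present in 64.9% of members, 68.0% of intronic regions without a site and 68.9% of all regions.

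How often a member was called differed between the libraries of a genotype. WT 1 had a peak in 6578 members (89.3%, against 83.8% of all regions), WT 2 in 5183 (70.4%, against 65.2%), Mapk8-KO 1 in 6115 (83.1%, against 83.2%) and Mapk8-KO 2 in 3803 (51.7%, against 59.1%). Members were thus called more often than all regions in both WT libraries, about equally in Mapk8-KO 1 and less often in Mapk8-KO 2. The share was 79.9% ± 13.4 in WT and 67.4% ± 22.2 in Mapk8-KO (SD, n = 2 each), 12.5 points apart (two-sided exact permutation p = 0.667). Against all regions, the excess in members was 5.39 ± 0.227 points in WT and −3.76 ± 5.15 points in Mapk8-KO, with both WT libraries above both Mapk8-KO libraries (exact permutation p = 0.333, the smallest that 2 against 2 libraries allow). Without Mapk8-KO 2 the difference in share reversed to −3.18 points. In bulk libraries, fewer cells in which a region is open and less open regions in every cell cannot be told apart.

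**Figure D2:**
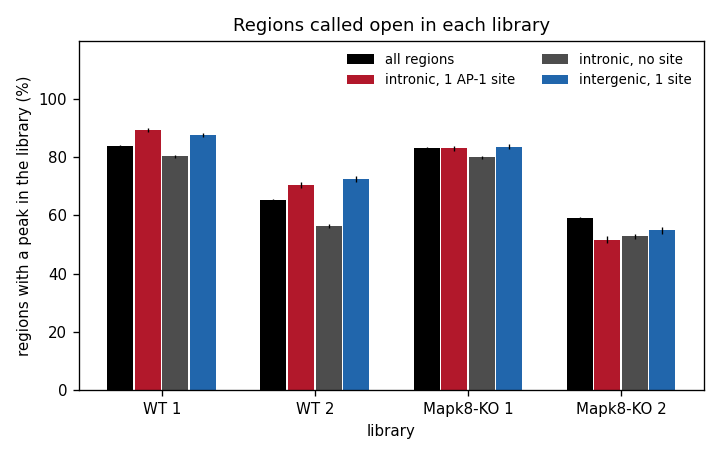
Share of regions with a peak (%, y axis, from 0) in each library (x axis), for all 82641 regions, the 7363 members, intronic distal regions without an AP-1 site and intergenic one-site regions. Error bars are Wilson 95% intervals over regions, and the bar of the members is above that of all regions in WT 1 (89.3% against 83.8%) and below it in Mapk8-KO 2 (51.7% against 59.1%).

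A core of 3458 members (47.0%, 45.8 to 48.1) was called in all 4 libraries, against 48.6% of all regions and 39.03% (38.3 to 39.7) of intronic regions without a site. Another 1435 were called in 3 libraries, 1072 in 2 and 1398 in 1. Of those called in 3, Mapk8-KO 2 was the missing one for 1193, WT 2 for 211, Mapk8-KO 1 for 17 and WT 1 for 14. Members called in all 4 had a median width of 536 bp and those called in 1 a width of 205 bp, and the median pileup in their highest library was 58 and 17 fragments.

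Regions called in both libraries of one genotype and in none of the other favoured WT among members. WT-only members numbered 241 (3.27%, against 2.17% of all regions) and Mapk8-KO-only members 32 (0.435%, against 1.65% of all regions). Without Mapk8-KO 2, a member counts as specific to Mapk8-KO by a peak in 1 library and to WT by peaks in 2, which raises the Mapk8-KO counts by construction. On that count 258 members (3.50%, against 2.56% of all regions) had a peak in WT 1 and WT 2 but not in Mapk8-KO 1, while 476 (6.46%, against 10.1% of all regions) were called in Mapk8-KO 1 and in no WT library. A region without a peak is below the calling threshold of that library, which is not the same as closed.

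Among the WT-only members, the highest pileups were in introns of Timp3, an inhibitor of matrix metalloproteinases (39 and 39 fragments in WT 1 and WT 2; the region also lies within Syn3), Focad (39 and 38) and Abhd12, a lipase of lysophosphatidylserine (45 and 33). Each spans about 200 bases, Timp3 at chr10:86307258-86307490, Focad at chr4:88392418-88392642 and Abhd12 at chr2:150849618-150849811. Among the Mapk8-KO-only members the highest were in Dpp4, a cell-surface peptidase (38 fragments in Mapk8-KO 1 and 20 in Mapk8-KO 2; chr2:62368436-62368719), Stat3, the transcription factor activated by IL-6 family and IL-22 receptors (27 and 23; chr11:100899350-100899544), and Rnf144b, a ubiquitin ligase (28 and 20; chr13:47170081-47170263). The median over the 3458 members called in all 4 libraries was 53, 35, 56 and 28 fragments. All 6 genotype-specific regions were below it in each library that called them, except those in Timp3 and Focad in WT 2.

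The level of the members called in all 4 libraries followed the same order of libraries. Their median centred log2 pileup was 0.11 and 0.04 in the WT libraries and 0.05 and −0.10 in the Mapk8-KO libraries. Mapk8-KO 1 stood between the WT libraries, and Mapk8-KO 2 below all. The mean was 0.08 ± 0.05 in WT and −0.02 ± 0.11 in Mapk8-KO (SD, n = 2 each), a difference of 0.10 (exact permutation p = 0.667). It was 0.06 without Mapk8-KO 2, 0.18 without Mapk8-KO 1 and 0.22 with values centred on promoters. The difference was 0.08 with fold enrichment, 0.13 at a mean pileup of at least 40 and 0.08 with centring within GC deciles. In these settings, and with centring on promoters, both WT libraries were above both Mapk8-KO libraries (exact permutation p = 0.333 in each). Centred on distal regions without a site it was 0.11 (exact permutation p = 0.667), so the separation depended on the setting.

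Compared with the 7186 intronic distal regions without an AP-1 site that were called in all 4 libraries, members were 1.26-fold higher in WT 1, 1.25-fold in WT 2, 1.24-fold in Mapk8-KO 1 and 1.08-fold in Mapk8-KO 2. On the log2 scale the excess averaged 0.27 ± 0.11 (SD, n = 4) and was positive in 4 of 4 libraries (two-sided exact sign-flip p = 0.125, the smallest that 4 libraries allow). Among regions with a mean pileup of at least 40, where low regions of both classes are left out, it was 0.13, 0.12, 0.10 and 0 in the 4 libraries, a mean of 0.09 (exact sign-flip p = 0.25). Without this filter it was 0.33 ± 0.01 in WT and 0.21 ± 0.15 in Mapk8-KO, 0.12 apart, with both WT libraries above both Mapk8-KO libraries (exact permutation p = 0.333). The values of WT 2 and Mapk8-KO 1 were close, at 0.322 and 0.316. The difference between genotypes was 0.09 without Mapk8-KO 2 and 0.22 without Mapk8-KO 1. Regions without a site were at −0.22, −0.28, −0.26 and −0.21 in the 4 libraries, and promoter regions at 0.14, 0.16, 0.20 and 0.34, so promoters were highest in the library in which members were lowest.

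The number of sites went with the level. The 529 intronic regions with 2 or more AP-1 sites were 0.31 ± 0.07 above members on the log2 scale (SD, n = 4), higher in 4 of 4 libraries (exact sign-flip p = 0.125). Their levels were 0.41, 0.44, 0.35 and 0.14 in the 4 libraries. The gap was 0.16 with a mean pileup of at least 40 and 0.18 with fold enrichment. Intergenic regions with 1 site were 0.06 ± 0.04 above members, higher in 4 of 4 libraries (exact sign-flip p = 0.125), a difference of 1 to 3 fragments at the median.

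**Figure D3:**
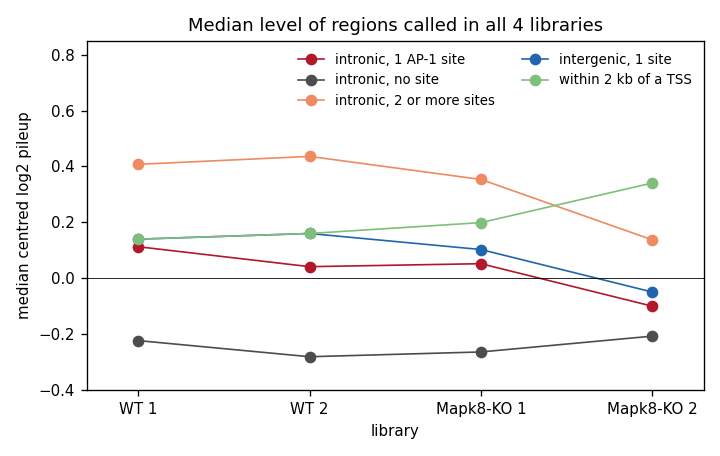
Median centred log2 pileup (y axis) of regions called in all 4 libraries, by library (x axis) and class of region; 0 is the median of all 40159 such regions in that library. The members stand at 0.11, 0.04, 0.05 and −0.10, above intronic regions without a site in every library, and approach them in Mapk8-KO 2.

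Members with the site nearest to the summit were called in all 4 libraries less often than the others. Members with the site at 20 to 39 bp had median levels of 0.17, 0.12, 0.08 and −0.10 in the 4 libraries, and those with the site within 19 bp stood at 0.03, 0.00, −0.03 and −0.15. The share called in all 4 libraries was 41.8% (39.6 to 44.1) within 19 bp, 47.7% (45.6 to 49.7) at 20 to 39 bp, 49.1% (47.0 to 51.3) at 40 to 79 bp and 50% (47.1 to 52.9) beyond, so the first interval lies below the others.

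Region by region, the difference between genotypes was estimated with limma over all 40159 regions called in every library. At an adjusted p (Benjamini-Hochberg) under 0.05, 36 of 3458 members were higher in WT (1.04%, against 0.498% of all regions) and 0 passed in the direction of Mapk8-KO, where 0.11% of all regions did. The 36 became 0 without the variance trend of the fit and 0 with fold enrichment in place of the pileup. At a mean pileup of at least 40 they became 3 of 1915 members, beside 32 of 21353 regions. At an unadjusted p under 0.05 the counts were 362 (10.5%, where 5.44% of all regions were higher in WT) and 66 (1.91%, where 5.82% of all regions were higher in Mapk8-KO). The median difference of the members was 0.08 (log2, WT minus Mapk8-KO) beside −0.05 for all regions, and 62.3% of members had a positive difference, against 42.6% of all regions. The members' median was 0.04 without Mapk8-KO 2 (54.8% positive), 0.13 without Mapk8-KO 1, 0.05 with centring within GC deciles (56.7% positive) and 0.04 with fold enrichment. Both WT values were above both Mapk8-KO values in 952 members (27.5%, against 16.9% of all regions), and both Mapk8-KO values above both WT values in 440 (12.7%, against 24.6%). With values centred on promoters, which raised the median difference of all regions from −0.05 to 0.07, these counts became 1284 (beside 25.5% of all regions) and 201 (beside 13.8% of all regions), and 77.8% of members and 59.6% of all regions had a positive difference.

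The 2 Mapk8-KO libraries contributed unequally. Mapk8-KO 1 was below both WT libraries in 1309 members (37.9%, against 30.8% of all regions) and Mapk8-KO 2 in 1771 (51.2%, against 31.2% of all regions). Across the members the median of the WT mean minus the Mapk8-KO library was 0.02 for Mapk8-KO 1 and 0.13 for Mapk8-KO 2. In the 36 members called higher in WT, Mapk8-KO 1 was below both WT libraries on the centred scale in all 36 and Mapk8-KO 2 was the lowest of the 4 in 35, with median differences from the WT mean of 0.62 and 1.27. Without Mapk8-KO 2 limma called 4 of 4651 members higher in WT (against 0.06% of all regions), 2 of them among the 36. Without Mapk8-KO 1 it called 206 of 3475 members higher in WT, among them all 36, and 4 higher in Mapk8-KO, beside 2.69% and 1.56% of all regions.

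**Figure D4:**
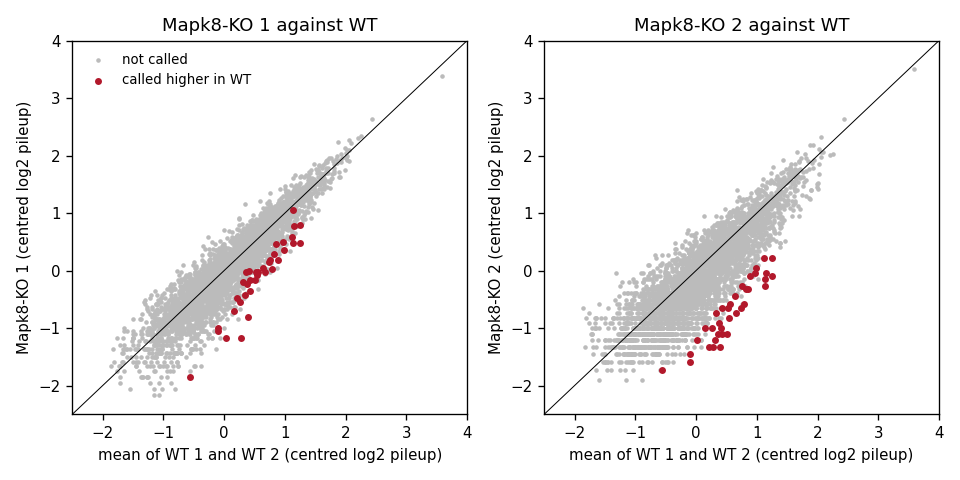
Centred log2 pileup of the 3458 members called in all 4 libraries in Mapk8-KO 1 (left, y axis) and Mapk8-KO 2 (right, y axis) against the mean of WT 1 and WT 2 (x axis); the line is equality and red points are the 36 members called higher in WT. The red points lie below the line in both panels, by a median of 0.62 (left) and 1.27 (right).

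The largest difference among the called members was in intron 1 of Abca8b, a lipid transporter of the ABC family (chr11:109991077-109991564). Pileups were 54 and 45 in WT and 24 and 12 in Mapk8-KO, a log2 difference of 1.52 ± 0.28 (SE; limma adjusted p = 0.000315) or 2.86-fold. The region in intron 1 of Ankrd55 (chr13:112300409-112300865) had 64 and 45 fragments in WT and 31 and 12 in Mapk8-KO, a log2 difference of 1.46 ± 0.27 (limma adjusted p = 0.000315). In both regions the genotypes did not overlap. Leaving out 1 library at a time, the difference ran from 1.37 to 1.68 for Abca8b and from 1.16 to 1.72 for Ankrd55. Neither passed without the variance trend (limma adjusted p = 0.169 for both). With fold enrichment the differences were 0.91 and 0.74 (limma adjusted p = 0.302 and 0.48). With a block for replicate number and GC centring together, neither passed (limma adjusted p = 0.0794 for both). The region in intron 6 of Pbld2 (chr10:63052967-63053530) had 33 and 23 against 15 and 9 fragments, and a log2 difference of 1.23 ± 0.32 (limma adjusted p = 0.0341). The region in intron 18 of Aass, which encodes the first enzyme of lysine breakdown (chr6:23084676-23085290), had 50 and 29 against 26 and 10, and a difference of 1.22 ± 0.29 (limma adjusted p = 0.017). In intron 2 of Adgrb1, an adhesion receptor that recognises apoptotic cells (chr15:74533231-74533634), pileups of 40 and 43 stood against 24 and 13, a difference of 1.21 ± 0.28 (limma adjusted p = 0.0132). The adjusted p of these last 3 rose to between 0.111 and 0.406 without Mapk8-KO 2 and to between 0.334 and 0.766 without WT 2, and Pbld2 and Aass also lost the threshold without WT 1 (0.291 and 0.347).

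The other called members differed by 0.72 to 1.14 on the log2 scale. They included introns of Prkca, the protein kinase C alpha gene (55 and 55 in WT, 48 and 14 in Mapk8-KO), Plxna2, a semaphorin co-receptor (102 and 93, 75 and 28), Dock2, a Rac activator of leukocytes (101 and 79, 75 and 27), Flt1, the VEGF receptor that is also on the endothelial marker list (43 and 48, 33 and 15), and Il34, a ligand of the CSF1 receptor made by keratinocytes (94 and 69, 69 and 31); these 5 were picked for their known roles after their values were seen. In each of them Mapk8-KO 1 was nearer to the WT libraries than Mapk8-KO 2 was. Lsamp and Dok6 each hosted 2 of the 36.

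No member passed in the direction of Mapk8-KO. The 3 with the smallest unadjusted p, which missed the threshold, were in introns of Rnf144b (chr13:47171142-47171643; 38 and 27 fragments in WT, 73 and 42 in Mapk8-KO; log2 difference −0.81 ± 0.24, limma adjusted p = 0.0752), Fer, a tyrosine kinase (chr17:64130123-64130864; 27 and 10, 37 and 29; −1.02 ± 0.30, limma adjusted p = 0.084), and Ptprn2 (chr12:116622694-116623141; 24 and 27, 58 and 36; −0.86 ± 0.26, limma adjusted p = 0.093). The Rnf144b region lies about a kilobase from the Mapk8-KO-only region of the same gene given above.

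None of the 5 highest members passed the threshold. The region in intron 22 of Sfi1, a centrosomal gene (chr11:3136666-3137509), reached 533, 452, 561 and 340 fragments. The 61 bases around its site occur 2 times in the assembly. Whether fragments reaching past these bases can be placed was not tested. Per the study's methods, reads that mapped to more than 1 place were removed. The other high members each had a single copy. They were in Camk2d, a calcium-dependent kinase (chr3:126831396-126831832; 249, 194, 335 and 187), Rab38, a GTPase of melanosome traffic (chr7:88468399-88469138; 231, 163, 272 and 123), Rnf217 (chr10:31533155-31533943; 207, 140, 262 and 151) and Gramd3 (217, 164, 266 and 121). Log2 differences of the 5 were between −0.24 and 0.15, with limma adjusted p of 0.602 or more. On the centred scale both Mapk8-KO libraries were above both WT libraries in Camk2d (2.63 and 2.64 against 2.35 and 2.51) and Rnf217 (2.28 and 2.33 against 2.08 and 2.04).

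At the targeted gene itself, Mapk8, 1 member lay in intron 1, 2964 bp from the nearest TSS (chr14:33443834-33444178). Its pileup was 80 and 47 in WT and 77 and 45 in Mapk8-KO, and the log2 difference was 0.04 ± 0.20. Peak lists hold no reads over the deleted part of the gene, so this region does not check the deletion.

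Egfr, the receptor of the EGF family that drives keratinocyte growth, hosted 6 members, 5 of them in its first intron. The tallest (chr11:16800442-16801120) had 196, 120, 205 and 110 fragments, and the next (chr11:16850782-16851590) had 149, 99, 152 and 58. At chr11:16791238-16791618 the values were 102 and 52 in WT and 70 and 32 in Mapk8-KO, a log2 difference of 0.60 ± 0.21 that missed the threshold (limma adjusted p = 0.168). The other 3 had 76, 54, 79 and 46 fragments, 68, 41, 61 and 26 fragments, and 37, 21 and 27 fragments with no peak in Mapk8-KO 2. All 5 Egfr members called everywhere had a positive difference, as had 62.3% of members and 42.6% of all regions. The differences ran from 0.01 to 0.60, and the smallest were 0.01 ± 0.17 and 0.07 ± 0.20 (SE). The second tallest had an unadjusted limma p of 0.0464 and missed the threshold (limma adjusted p = 0.435).

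Of the other genes looked up, Tgm3, a transglutaminase that crosslinks the cornified envelope, hosted 3 members. Its tallest, in intron 7 (chr2:130029892-130030217), had 83, 53, 84 and 46 fragments, one in intron 5 had 36, 42, 49 and 30, and one in intron 7 had 29, 29 and 14 with no peak in WT 2. Areg, the EGFR ligand amphiregulin, hosted 1 in intron 4 (chr5:91145123-91145393), with 26 and 20 fragments in WT and 36 in Mapk8-KO 1. Cdc20, an activator of the anaphase-promoting complex, hosted 1 in intron 8 (chr4:118434501-118435325), with 54, 30 and 39. Neither of these had a peak in Mapk8-KO 2. Elovl1 and Hbegf hosted 0 members.

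Members in genes of 8 functional lists were described next. Of 233 listed genes 113 hosted 300 members, 140 of which (46.7%) were called in all 4 libraries. Of these 140, 0 passed the adjusted threshold (limma), while 13 were higher in WT and 3 higher in Mapk8-KO at an unadjusted p under 0.05. These are 9.29% and 2.14%, beside 10.5% and 1.91% of all members and 5.44% and 5.82% of all regions, the background for the counts per list that follow. Their median difference was 0.09, close to the 0.08 of all members.

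EGFR and MAPK signalling genes hosted 36 members, 18 of them called in all 4 libraries, with a median difference of 0.04. Nrg1, an ErbB ligand gene, held 10 of the 36. After the 2 Egfr regions the highest was in Gab1, an adaptor of receptor tyrosine kinases (118 and 77 in WT, 145 and 51 in Mapk8-KO). At an unadjusted p under 0.05 there were 4 of 18 higher in WT, beside 10.5% of members and 5.44% of all regions, and 0 higher in Mapk8-KO.

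Genes of the JNK pathway and of AP-1 subunits hosted 18 members, 9 of them called in all 4 libraries, with a median difference of 0.04. The highest lay in Atf3, itself an AP-1 family gene (151, 97, 156 and 93), in Map3k4 (106, 57, 111 and 51) and in Map3k5 (88, 54, 114 and 45), kinases that act upstream of JNK. Mapk8-KO values overlapped WT values in all 3, and none of the 9 reached an unadjusted p under 0.05 in either direction.

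Epidermal adhesion genes hosted 39 members and 19 were called in all 4 libraries (median difference 0.02). Dst, which encodes a hemidesmosome plakin, held 6 of the 39, and its highest region had 125 and 79 fragments in WT and 96 and 54 in Mapk8-KO (log2 difference 0.44 ± 0.18, limma adjusted p = 0.304). Another Dst region had 86, 54, 97 and 54.

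Genes of epidermal transcription factors hosted the most members of the 8 lists, 56 of which 26 were called in all 4 libraries (median difference 0.08). Rora held 11 and Nfib 9. The 3 highest were all in Wwtr1, which encodes the Hippo effector TAZ, with 144, 75, 133 and 68 fragments, 136, 83, 156 and 50, and 114, 74, 123 and 59. At an unadjusted p under 0.05, 1 of the 26 was higher in WT and 2 were higher in Mapk8-KO.

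Cytokine receptor and inflammatory signalling genes hosted 34 members, 17 called in all 4 libraries, with the highest median difference of the lists, 0.23. Il20rb, a receptor subunit for IL-19, IL-20 and IL-24, had 163, 104, 176 and 87 fragments, with overlapping genotypes. Rel, an NF-kB subunit, had 89, 69, 114 and 57. Jak2, a cytokine receptor kinase, had 92 and 48 in WT and 122 and 60 in Mapk8-KO, a difference of −0.38 ± 0.19 (limma adjusted p = 0.426). At an unadjusted p under 0.05, 2 of the 17 were higher in WT and 1 was higher in Mapk8-KO.

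Barrier and differentiation genes hosted 23 members, 13 of which were called in all 4 libraries (median difference 0.07). The highest were in Abca12, the lipid transporter of lamellar granules (130, 78, 124 and 68), in Sgms1, a sphingomyelin synthase (120, 66, 131 and 69), and in Elovl6, a fatty acid elongase (119, 72, 118 and 68). Their log2 differences were 0.11, −0.12 and 0.03, and none of the 13 reached an unadjusted p under 0.05. Mapk8-KO 1 had a peak in all 23, beside 83.1% of members and 83.2% of all regions. WT 1, WT 2 and Mapk8-KO 2 had a peak in 21, 19 and 14 of them, beside 89.3%, 70.4% and 51.7% of members.

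TGF-beta pathway genes hosted 41 members and 21 were called in all 4 libraries, with a median difference of 0.18. In 18 of the 21 the difference was positive, as in 62.3% of members and 42.6% of all regions, and 3 were higher in WT at an unadjusted p under 0.05, beside 10.5% of members and 5.44% of all regions. Smad3 held 7 of the 41. The highest regions, in the receptor genes Tgfbr2 (110, 67, 125 and 54) and Tgfbr1 (105, 67, 91 and 67) and in the ubiquitin ligase gene Smurf1 (104, 77, 119 and 51), had differences of 0.04, 0.08 and 0.18.

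Genes of the actin cytoskeleton and cell migration hosted 53 members with a median difference of 0.19, of which 17 (32.1%, beside 47.0% of all members) were called in all 4 libraries. WT 1 called 47, WT 2 called 36, Mapk8-KO 1 called 47 and Mapk8-KO 2 called 21 (39.6%, beside 51.7% of all members). Lpp held 9. Elmo1 and Dock1, partners in a Rac exchange factor, gave the 3 highest. Elmo1 had 132, 83, 143 and 67 fragments in one region and 131, 96, 114 and 43 in another, where both WT libraries were above both Mapk8-KO libraries (0.66 ± 0.18, limma adjusted p = 0.0542). Dock1 had 121, 89, 126 and 61.

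**Figure D5:**
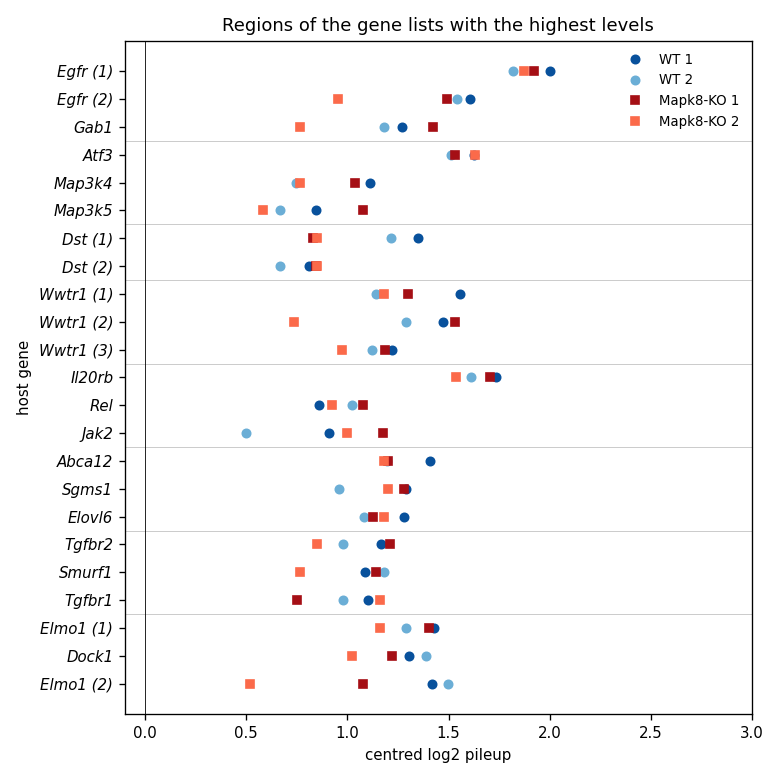
Centred log2 pileup (x axis) in each library of the highest members of the 8 gene lists, 3 per list and 2 for epidermal adhesion, labelled by host gene with numbers for regions of the same host in the order of level, lists separated by grey lines from EGFR and MAPK signalling at the top to actin and migration at the bottom. Mapk8-KO 2 is the lowest library in several rows, such as the second Egfr region (58 fragments) and the second Elmo1 region (43 fragments).

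The 3 members just inside the distance limit, 2001 to 2003 bp from a TSS, were in Zc3h12a (86, 64, 56 and 34 fragments), Cd200r1 (15 in WT 2, no peak elsewhere) and Npas2 (60, 37, 55 and 32). The 3 just outside, at 1997 to 2000 bp, were in Kbtbd4 (45, 28 and 34, no peak in Mapk8-KO 2), Psen2 (23 in WT 1 and 11 in Mapk8-KO 2) and Gbp5 (24, 21 and 21, no peak in Mapk8-KO 2).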

How the data were processed

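The data were 4 peak lists, 1 per library (2 WT, 2 Mapk8-KO). According to the methods of the study, the authors aligned reads to mm10 with Bowtie2 and used MACS2 on the paired fragments of each library. The submitters' notes also list Trimmomatic 0.36 and STAR 2.5.3, which the study's methods describe for its RNA-seq. A shift of read ends for Tn5 is not given in the sources used here. The deposited lists hold for each peak a fold enrichment over the local background (a ratio), −log10 p and −log10 q, a score made from q, and the summit's offset in bp. The fragments piled up at each summit were recovered from the deposited fold and −log10 p values, and all but 1 or 2 peaks per list came out whole within 0.05. Peaks sharing at least 1 bp were merged, and the summit with the highest fold was used. TSSs, exons and introns came from GENCODE M21 basic, and sequence from GRCm38.p6. A library without a peak has no value.

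Levels are log2 pileups minus the library's median over regions called in all 4 libraries. Regions were tested with limma 3.58.1 (R 4.3.3) with a variance trend and no covariates, adjusted by Benjamini-Hochberg over all 40159 regions, with pileups in place of read counts, which were not used here; the fit was tested on simulated data. Single values were compared with two-sided exact permutation tests over 6 assignments of labels, or sign flips over 4 libraries. Shares have Wilson 95% intervals, which cover counting error only. The 2 libraries per genotype are independent samples per the study, and precision is limited by their number and by the median pileup of 30 to 54 fragments. Named were members hosted by Mapk8, Egfr, Elovl1, Cdc20, Tgm3, Hbegf and Areg, the 3 highest per gene list (1 of them is not reported here), the 5 highest, the 5 called with the largest difference (or the 3 of smallest p), the 3 highest specific to each genotype, and the hosts with most members. The members and lists were chosen with earlier results of these data known. Alternatives were peak thresholds, membership windows, centring, filters, the replicate block and leaving out each library.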

Additional observations from a re-analysis of the deposited data

How the results depend on the processing

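The comparison of genotypes depends on which library is left out. Leaving out 1 library at a time, the difference in the share of members called ranged from −3.18 (without Mapk8-KO 2) to 28.2 points, the share called in all remaining libraries from 47.2% to 63.2%, WT-only members from 258 to 1434, Mapk8-KO-only members from 46 to 476 (fewer libraries then define them), members called higher in WT by limma from 0 to 206 and those higher in Mapk8-KO from 0 to 4. The 36 calls of 3458 members stood beside 200 of 40159 regions. They became 0 without the variance trend (322 and 63 members then had an unadjusted p under 0.05) and 0 with log2 fold enrichment. They became 3 of 1915 with a mean pileup of at least 40, beside 32 of 21353 regions. With centring within GC deciles they became 9 (66 of 40159 regions) and with centring on promoters 2 (16 of 40159 regions). On the log2(pileup + 1) scale, which was chosen after seeing the data, they became 19 (134 of 40159 regions). The cause was not tested. With the replicate block in the limma fit 51 members were called higher in WT and 0 higher in Mapk8-KO, beside 284 and 102 of 40159 regions. With the replicate block and GC centring together, 0 members and 0 regions were called. Deviations of same-numbered libraries from their genotype mean were hardly correlated on the centred scale (r = 0.04 over 40159 regions). Centring removes depth, which went with the number (median pileup 49 and 54 against 34 and 30). This correlation therefore cannot show whether the numbers pair the samples. Averaging the differences within numbers gives the same differences in share and level (12.5 points, 0.10 and 0.12) by construction, so it checks nothing. Lists cut to equal length gave 43.6% called in all 4 libraries and 64 Mapk8-KO-only members, and a peak covering 50% of the region gave 36.9%. Members without overlap fell to 578 and 201 at a mean pileup of at least 40, where fewer regions remain, and to 201 higher in Mapk8-KO with centring on promoters. A second motif was present in 53.5% within 100 bp and 33.3% within 50 bp, where less sequence is searched. The excess over intronic regions without a site was 0.09 at a mean pileup of at least 40 and 0.18 to 0.32 under its log2 alternatives otherwise. Of 136 comparisons of main results with an alternative, 107 kept the sign or stayed near in size, 28 moved and 1 reversed. The p-values of the permutation and sign-flip tests did not enter this count. The 107 include the averages within numbers, which could not differ.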
